A study of Mus musculus with 6 samples.

Results

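The enzymes that make, modify and break down ceramides and other sphingolipids were examined as 37 genes among the 19938 measured in embryonic mouse bladders. They were taken by gene symbol from a list of sphingolipid synthesis, turnover and very-long-chain fatty acid elongation, and all 37 were on the array. Where a gene had several array features, the brightest one by its mean over the 6 arrays was used, which concerned Acer2 alone among the 37. The choice of features used no genotype, but the list itself was drawn up with earlier results of these data known, so its counts describe these genes and are not independent support for anything.

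The bladders came from embryos at E14.5. The Klf5-deleted group (labelled Klf5 ∆/∆) had both alleles of Klf5 deleted, and Klf5 encodes a Krüppel-like zinc-finger regulator of epithelial genes. Its labels do not spell out the Cre allele. The control group had intact alleles and carried Cre (labelled Klf5+/+ShhGfpCre+), in an allele where Shh sequences drive a GFP and Cre fusion protein. Cells without Shh expression in themselves or in their precursors are therefore outside the reach of this Cre. In the embryonic bladder Shh is a product of the epithelium. That the Klf5-deleted group carried this same allele is not given by its labels. Each group had 3 samples, and every sample was a pool of 2 whole bladders hybridised to 1 Affymetrix Mouse Gene 1.0 ST array. The source is labelled bladder urothelium, while the protocol describes whole bladders. The smooth muscle actin gene Acta2 was near the top of the range on all arrays, at 13.97 to 14.05 in the Klf5-deleted group and 14.07 to 14.16 in controls on the log2 scale. In such tissue, fewer cells of a type and less RNA per cell cannot be told apart.

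Sphingolipids are built on a long-chain base. Serine palmitoyltransferase joins serine to a fatty acyl chain, and ceramide synthases add a second acyl chain, which may itself be hydroxylated. The resulting dihydroceramide is desaturated to ceramide or hydroxylated to phytoceramide. Ceramide is then turned into sphingomyelin, glycosphingolipids or ceramide phosphate. Ceramidases release sphingosine, which kinases convert to the signalling lipid sphingosine phosphate. In stratified epithelia such as the epidermis, ceramides with very long and hydroxylated chains form the water barrier; the urothelium is likewise a permeability barrier, built up as it matures.

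Of the 37 genes, 5 fell in the Klf5-deleted bladders and none rose. The 5 were Fa2h, Sptssb, Cers3, Sptlc3 and Degs2, and all 5 act in ceramide synthesis or in the modification of its chains. By mean level over all arrays they lay at percentiles 44.7, 27.6, 46.8, 47.0 and 32.5 of all genes, in that order. Background could not be assessed, so the sizes of their falls are uncertain, most of all for Sptssb, the dimmest of them. The test was limma's moderated test on the deposited log2 values, with the p adjusted by Benjamini-Hochberg over all 19938 genes and a threshold of 0.05. By the same test 318 of 19938 genes (1.59%) fell and 77 (0.386%) rose. Falls of at least 2-fold numbered 4 of 37, against 0.527% of all genes. At an unadjusted p under 0.05 by limma, 8 of the 37 were lower and 1 was higher, against 8.08% and 6.34% of all genes. The median difference over the 37 was -0.068, against -0.0099 over all genes, so the middle gene of the list differed by little.

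**Figure D1:**
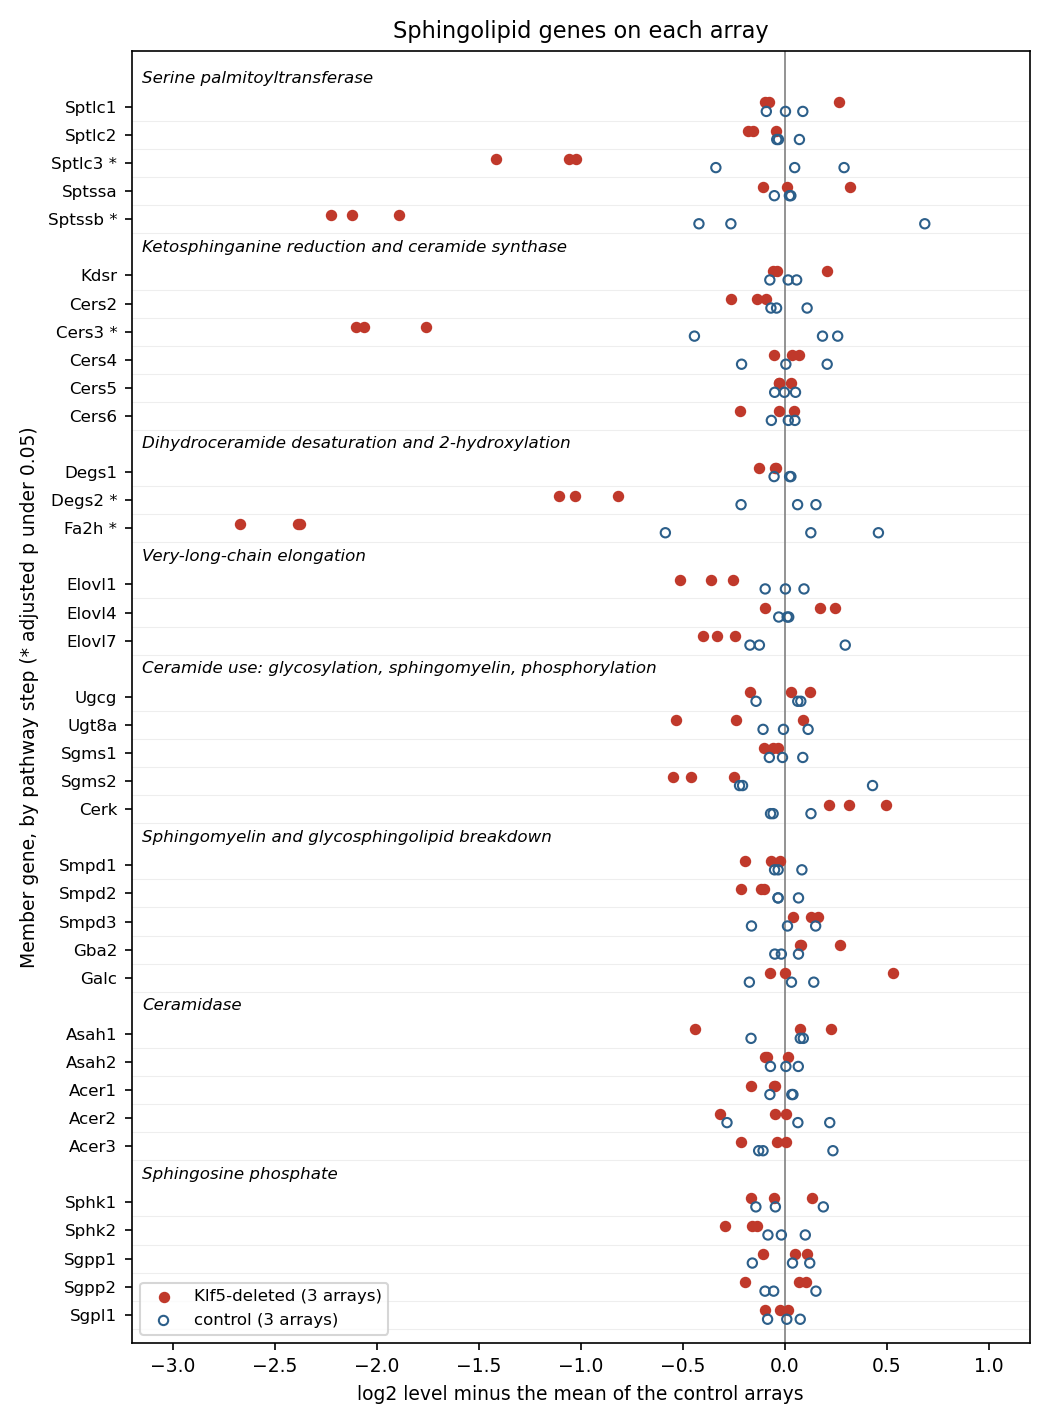
Log2 level of each of the 37 genes on each array, minus the gene's mean over the 3 control arrays, with filled points for Klf5-deleted and open points for control, grouped by pathway step; asterisks mark an adjusted p under 0.05. Fa2h, Sptssb, Cers3, Sptlc3 and Degs2 stand to the left of all other genes, and the remaining 32 lie between differences of -0.42 and 0.34.

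Fa2h, the fatty acid hydroxylase that makes the hydroxylated acyl chains of myelin and skin sphingolipids, showed the widest gap. It read 6.92, 6.63 and 6.91 in the Klf5-deleted arrays, against 9.76, 8.71 and 9.43 in the control arrays. The lowest control array lay well above the highest Klf5-deleted array. The difference was -2.48 (SE 0.24, 95% confidence interval -3.05 to -1.91, adjusted p = 0.00423 by limma), a level 5.57-fold lower, and it ranked 13 among all 19938 genes ordered from the largest fall.

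Sptssb, a small subunit that activates serine palmitoyltransferase, read 5.83, 6.06 and 5.72 in the Klf5-deleted arrays. The control arrays read 8.63, 7.68 and 7.53, so control 1 stood apart from the other two controls, and the groups did not overlap. The difference was -2.08 (SE 0.27, 95% confidence interval -2.71 to -1.44, adjusted p = 0.0123 by limma), or 4.23-fold lower. Without control 1 the difference was -1.74 (adjusted p = 0.0042 by limma); without Klf5-deleted 1 or Klf5-deleted 2 the adjusted p by limma was 0.0676 and 0.052.

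Cers3, the ceramide synthase that uses ultra-long acyl chains in epidermis and testis, was 3.93-fold lower. Its levels were 7.13, 7.43 and 7.09 in the Klf5-deleted arrays and 9.38, 8.75 and 9.45 in the control arrays. The Klf5-deleted arrays lay close together and all below the controls. The difference of -1.98 (SE 0.19, 95% confidence interval -2.42 to -1.53) had an adjusted p of 0.00383 by limma.

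Sptlc3, a catalytic subunit of serine palmitoyltransferase that takes the place of Sptlc2 in part of the enzyme, was 2.24-fold lower. It read 7.39, 7.78 and 7.75 in the Klf5-deleted arrays, against 9.10, 8.47 and 8.86 in the control arrays, again without overlap. The difference was -1.17 (SE 0.17, 95% confidence interval -1.57 to -0.76, adjusted p = 0.0202 by limma). This call was the least secure of the 5, since among the fits that left out 1 array it passed without control 2 (adjusted p = 0.00504) and missed the threshold in the other 5, with an adjusted p by limma of 0.0523 to 0.082.

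Degs2, which desaturates dihydroceramide and also hydroxylates it to phytoceramide, was 1.98-fold lower. Its levels were 6.89, 6.68 and 6.60 in the Klf5-deleted arrays and 7.86, 7.77 and 7.50 in the control arrays. The spread within each group was small beside the gap between them. The difference was -0.98 (SE 0.12, 95% confidence interval -1.26 to -0.71, adjusted p = 0.00856 by limma); without Klf5-deleted 2 it was -0.96 with an adjusted p of 0.0515 by limma.

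**Figure D2:**
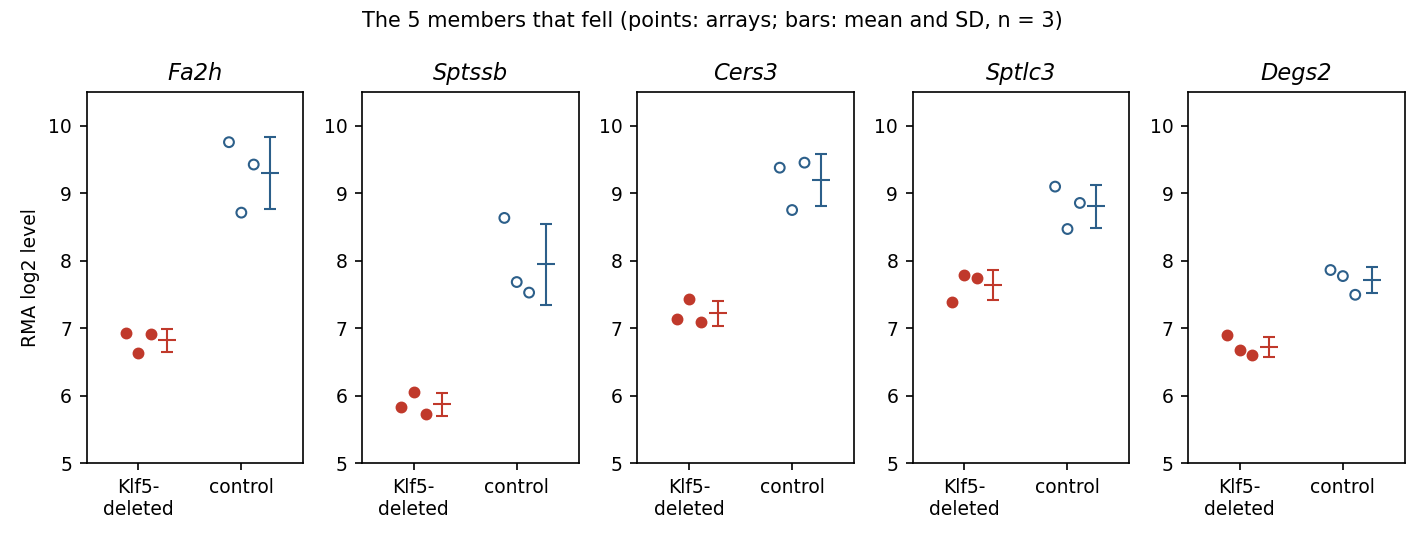
Log2 level on each array (points) with the mean and SD of 3 arrays (bars) for Fa2h, Sptssb, Cers3, Sptlc3 and Degs2, Klf5-deleted left of control in each panel. In every panel the 3 Klf5-deleted arrays lie below the 3 control arrays; for Sptssb control 1, at 8.63, stands above the other controls.

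RefSeq start sites were matched for 34 of the 37 genes, including 4 of the 5 that fell; Fa2h was not in the table. The 250 bases before the start of these 4 genes are shown (RefSeq, build GRCm38.p6, 5′ to 3′ on the gene's strand), because they are the sequences in which letters bound by Krüppel-like and related Sp factors can be looked for. Capitals mark CACCC and CCGCCC and their reverse complements GGGTG and GGGCGG.
Sptssb, chr3:69859895-69860144, minus strand: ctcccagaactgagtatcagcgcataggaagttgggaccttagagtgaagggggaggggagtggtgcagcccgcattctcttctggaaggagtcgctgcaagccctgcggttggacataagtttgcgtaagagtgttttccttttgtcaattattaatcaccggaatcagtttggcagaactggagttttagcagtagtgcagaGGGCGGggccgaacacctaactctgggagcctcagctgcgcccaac
Cers3, chr7:66743254-66743503, plus strand: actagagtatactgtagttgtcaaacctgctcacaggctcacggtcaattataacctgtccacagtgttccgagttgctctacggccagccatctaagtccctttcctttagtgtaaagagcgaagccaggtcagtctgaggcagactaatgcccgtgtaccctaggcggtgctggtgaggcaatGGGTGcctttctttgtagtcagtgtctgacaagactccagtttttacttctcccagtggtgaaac
Sptlc3, chr2:139493663-139493912, plus strand: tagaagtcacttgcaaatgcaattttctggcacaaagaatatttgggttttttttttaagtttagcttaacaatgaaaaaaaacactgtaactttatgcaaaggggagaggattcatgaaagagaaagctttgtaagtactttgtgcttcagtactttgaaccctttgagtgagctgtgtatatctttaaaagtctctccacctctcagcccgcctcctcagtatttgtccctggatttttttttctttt
Degs2, chr12:108702307-108702556, minus strand: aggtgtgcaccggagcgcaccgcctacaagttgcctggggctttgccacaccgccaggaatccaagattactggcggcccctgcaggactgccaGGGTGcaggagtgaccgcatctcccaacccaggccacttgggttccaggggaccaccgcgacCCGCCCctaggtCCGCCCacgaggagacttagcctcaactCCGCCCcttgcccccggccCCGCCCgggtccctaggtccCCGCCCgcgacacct

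The 4 windows had little in common. CACCC on either strand was found in 2 of the 4, once each in Cers3 and Degs2, and in 52.0% of all 32851 RefSeq windows of this length. CCGCCC on either strand was also in 2 of the 4, with 5 copies in Degs2 and 1 in Sptssb, against 32.7% of all windows. No copy of either overlapped a copy of the other in these windows. The Sptlc3 window held neither, and its content of G and C was 35.6%, against 69.2% for Degs2 and a median of 52.4% over all windows. Among the 46 windows of the 30 other matched genes, 32 held CACCC and 27 held CCGCCC. AACCGGTT, the letters bound by grainyhead-like factors, was in none of the 4 and in 0.116% of all windows. Which of these letters are bound in bladder was not measured here.

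The steps of the pathway differed in how many of their genes fell. In serine palmitoyltransferase 2 of 5 genes fell, the alternative catalytic subunit Sptlc3 and the small subunit Sptssb. The other subunits gave small differences: Sptlc1, the shared partner of the catalytic subunits, differed by 0.030 (95% confidence interval -0.23 to 0.29), Sptlc2, the main catalytic subunit, by -0.13 (-0.29 to 0.034), and Sptssa, the other small subunit, by 0.075 (-0.19 to 0.33). In the next steps Cers3 was the 1 gene of 6 to fall. Kdsr, which reduces the first intermediate, differed by 0.036, and the widely expressed synthases Cers2, Cers4, Cers5 and Cers6 differed by -0.16, 0.016, -0.010 and -0.068. Cers2, which makes the very-long-chain ceramides of most tissues, had all Klf5-deleted arrays (11.76 to 11.93) below all control arrays (11.96 to 12.14) but did not pass (adjusted p = 0.405 by limma). Of the 3 genes of desaturation and hydroxylation, Degs2 and Fa2h fell, and Degs1, the desaturase of ordinary ceramide synthesis, differed by -0.074 (95% confidence interval -0.22 to 0.072).

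Several steps thus held 1 gene that fell beside a paralog with a small difference, and the contrast between paralogs was tested for 8 pairs. For each pair the log2 difference of the 2 genes was taken within each array and compared between groups with an exact two-sided permutation test, which cannot give a p under 0.1 with 3 arrays a group. The contrast was -2.15 for Sptssb against Sptssa, -1.81 for Cers3 against Cers2, -1.04 for Sptlc3 against Sptlc2 and -0.91 for Degs2 against Degs1 on the log2 scale. In these 4 pairs the groups did not overlap, and each reached the smallest possible p of 0.1 (adjusted p = 0.2 over the 8 pairs, exact permutation). In each of the 4, the first gene had already passed limma's test on these same arrays and its paralog had not. Their separation was therefore largely set beforehand and is no further support. The pairs Sgms2 and Sgms1 (-0.35), Sgpp2 and Sgpp1 (-0.026), Sphk1 and Sphk2 (0.17) and Elovl7 and Elovl1 (0.051) overlapped between groups, with adjusted p of 0.48 to 0.9 by the exact test.

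No gene of fatty acid elongation, ceramide use, breakdown, ceramidases or sphingosine phosphate metabolism passed the threshold of limma's test. Elovl1, the elongase of saturated very-long-chain fatty acids, came nearest. It read 11.58, 11.32 and 11.47 in the Klf5-deleted arrays and 11.93, 11.84 and 11.74 in the control arrays, a difference of -0.38 (95% confidence interval -0.58 to -0.17, adjusted p = 0.0956 by limma). The groups did not overlap. Elovl7 differed by -0.33 (adjusted p = 0.3), or by -0.18 without control 3, and Elovl4, which makes the ultra-long chains of skin and retina, by 0.11 (adjusted p = 0.686).

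Among the enzymes that use ceramide, Cerk, the ceramide kinase, was the member with the largest positive difference. It read 9.54, 9.26 and 9.36 in the Klf5-deleted arrays, against 8.99, 9.17 and 8.97 in the control arrays. The groups did not overlap, and the difference was 0.34 (95% confidence interval 0.12 to 0.56, adjusted p = 0.148 by limma). It passed in 1 of 15 alternative settings, with arrays centred on housekeeping genes (0.55, adjusted p = 0.0216 by limma). That centring rested on the readings of Pgk1 and B2m, which themselves differed by -0.20 and -0.28. Ugcg, which makes glucosylceramide, differed by -0.0056 (95% confidence interval -0.24 to 0.23), and Ugt8a, which makes galactosylceramide, by -0.23 (-0.58 to 0.13). The sphingomyelin synthases Sgms1 of the Golgi and Sgms2 of the plasma membrane differed by -0.064 and -0.42 (adjusted p = 0.742 and 0.35 by limma); Sgms2 lay at 7.08 to 7.38 in the Klf5-deleted group, against 7.42, 8.06 and 7.41 in controls 1, 2 and 3, and differed by -0.20 without control 2.

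Differences in the breakdown genes were small. The sphingomyelinases Smpd1 (acid), Smpd2 and Smpd3 (neutral) differed by -0.097, -0.14 and 0.11, the glucosylceramidase Gba2 by 0.14 and the galactosylceramidase Galc by 0.15. The 5 ceramidase genes all overlapped between groups, with differences of -0.12 to -0.046, among them acid ceramidase Asah1 at -0.046 (95% confidence interval -0.44 to 0.35), neutral ceramidase Asah2 at -0.057 and the alkaline ceramidases Acer1 at -0.090, Acer2 at -0.12 and Acer3 at -0.082. The second array feature of Acer2 differed by -0.095. Among genes of sphingosine phosphate, the kinases Sphk1 and Sphk2 differed by -0.029 and -0.20, the phosphatases Sgpp1 and Sgpp2 by 0.018 and -0.0082, and the lyase Sgpl1, the exit of the pathway, by -0.035 (95% confidence interval -0.20 to 0.13).

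Besides the 5 genes that passed, all 3 Klf5-deleted arrays lay below all controls for Sptlc2, Cers2, Elovl1, Elovl7, Sgms2, Smpd2 and Sphk2, and above them for Cerk and Gba2. In all, 12 of the 37 genes were lower without overlap, against 11.8% of all genes, and 2 were higher without overlap, against 8.67%.

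The pathway outside the 37 genes was read from 3 further lists with 55 measured genes, of which 7 fell, 1 rose and 47 did not pass. The median difference of the 55 was -0.096. Of 36 sphingolipid genes 4 fell and 1 rose. A4galt, which makes the glycolipid globotriaosylceramide, read 7.59, 7.63 and 7.54 in the Klf5-deleted arrays and 8.39, 8.50 and 8.45 in the control arrays. Its arrays were tightly grouped and far apart, with a difference of -0.86 (SE 0.064, adjusted p = 0.00141 by limma), or 1.82-fold lower. Plpp2, a phosphatase of lipid phosphates, read 10.26 ± 0.059 in the Klf5-deleted group and 10.98 ± 0.093 in controls (SD, n = 3 each), a difference of -0.72 (adjusted p = 0.00456 by limma).

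Ormdl2, of the family that restrains serine palmitoyltransferase, fell by 0.45 (adjusted p = 0.0166 by limma), while its paralogs Ormdl1 and Ormdl3 differed by -0.12 and -0.0035 and did not pass. Gltp, which carries glycolipids between membranes, fell by 0.41 (adjusted p = 0.0241 by limma). St8sia1, which makes the ganglioside GD3, was the gene that rose, at 8.40, 8.58 and 8.23 in the Klf5-deleted arrays against 7.92, 7.78 and 7.86 in the control arrays (difference 0.55, SE 0.098, adjusted p = 0.0383 by limma). Gm2a, an activator of ganglioside breakdown, and Plekha8, a glucosylceramide carrier, differed by -0.45 and 0.39 and did not pass (adjusted p = 0.0914 and 0.0968 by limma).

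Of 10 other genes of fatty acid elongation 1 fell, Elovl6, which extends palmitate (-0.38, adjusted p = 0.0461 by limma); the dehydratase gene Hacd2 differed by -0.42 (adjusted p = 0.0665). Of 9 genes of the epidermal acylceramide barrier 2 fell. Tgm1, the transglutaminase of the cornified envelope, averaged 7.99 ± 0.045 in the Klf5-deleted group and 8.83 ± 0.16 in controls (SD, n = 3 each), a difference of -0.84 (adjusted p = 0.00584 by limma). Cyp4f39, a hydroxylase of ultra-long fatty acids in skin, differed by -0.68 (adjusted p = 0.0381 by limma). Other genes specific to that barrier gave small differences, and none passed. The lipid transporter Abca12 differed by -0.096, the lipoxygenase genes Alox12b and Aloxe3 by -0.065 and 0.029, and Pnpla1 by -0.19 (adjusted p = 0.29 by limma). For Alox12b and Pnpla1 all Klf5-deleted arrays lay below all controls. These genes were dim, at percentiles 20.3 to 25.4 of mean level, so small differences say little about them. A4galt, Plpp2 and Tgm1 passed in each of the 6 fits that left out 1 array. Ormdl2 passed in 2 of them, without control 2 and without control 3. Gltp passed in that without control 2, St8sia1 in that without Klf5-deleted 3, Cyp4f39 in that without control 3, and Elovl6 in none.

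**Figure D3:**
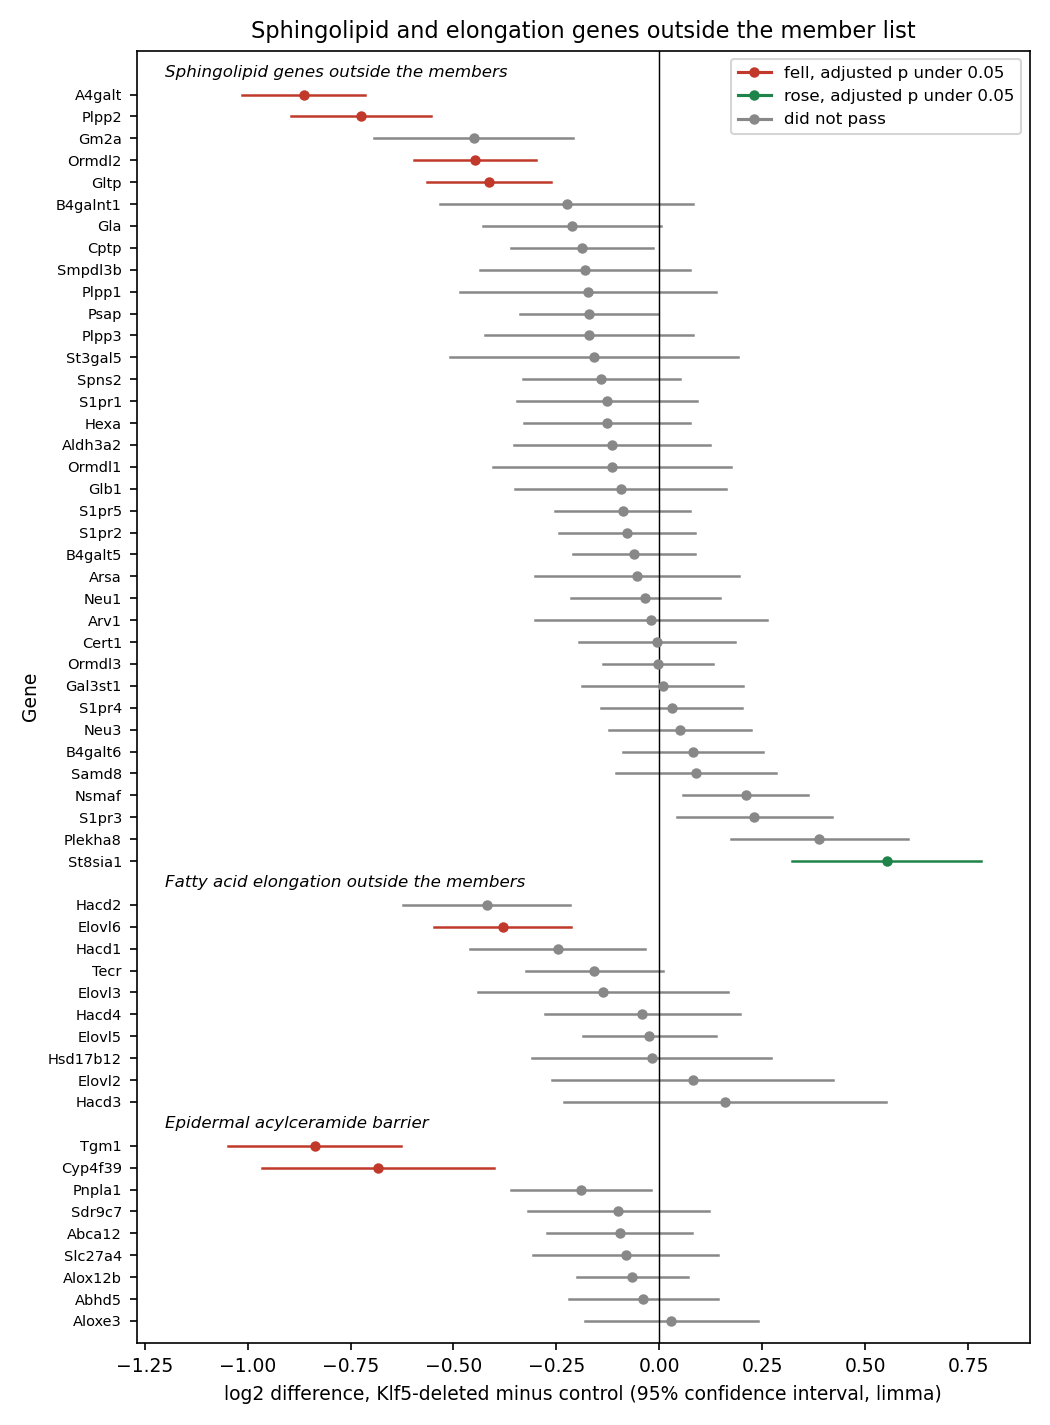
Log2 difference, Klf5-deleted minus control, with 95% confidence intervals from limma (n = 3 arrays a group) for 55 further genes of sphingolipid metabolism, elongation and the acylceramide barrier. A4galt, Plpp2, Ormdl2, Gltp, Elovl6, Tgm1 and Cyp4f39 fell, St8sia1 rose, and the other 47 did not pass.

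Many genes of general and of differentiated epithelium were also lower in these bladders, while most basal epithelial genes did not pass. Of 17 measured general epithelial genes 14 fell and none rose, with a median difference of -1.16; the mean level of the list was 8.96 to 9.26 in the Klf5-deleted arrays and 10.16 to 10.53 in the control arrays. Of 12 genes of urothelial differentiation 10 fell, with a median of -2.16 and list means of 8.18 to 8.36 in the Klf5-deleted group and 10.02 to 10.48 in controls. No marker can be called absent, since the values carry no detection call. To set the 5 falls beside this shift, each gene's level was taken relative to the mean of the 17 general epithelial genes on the same array, a comparison chosen after the values were seen. Fa2h then differed by -1.24, Sptssb by -0.84 and Cers3 by -0.74, with no overlap between groups and the smallest possible p of 0.1 (exact permutation). The 5 genes had been picked for falling on these same arrays, and these 3 had fallen furthest. Their separation on this scale was therefore largely set beforehand and is no further support. Without control 1 the value for Sptssb was -0.53. The fall of Fa2h exceeded those of all 17 epithelial genes, also with any 1 array left out; the falls of Sptssb and Cers3 exceeded all 17 over all arrays and 15 to 17 of them with 1 array left out. Sptlc3 and Degs2 differed by 0.072 and 0.25 on this scale and overlapped between groups (p = 0.6 each, exact permutation). Without this scaling, the urothelial differentiation genes Upk2 (-3.19), Psca (-2.82), Upk1a (-2.72), Mal (-2.69) and Snx31 (-2.58) fell further than Fa2h (-2.48). The other genes of that list differed by less than Fa2h. The list's median of -2.16 was a larger fall than those of Sptssb (-2.08) and Cers3 (-1.98). Of 8 basal epithelial genes 2 fell, Krt15 and Perp, with a list median of -0.19, and Krt5 and Krt14 differed by -0.096 and -0.14. The part of epithelial cell number in any of these differences was not tested.

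**Figure D4:**
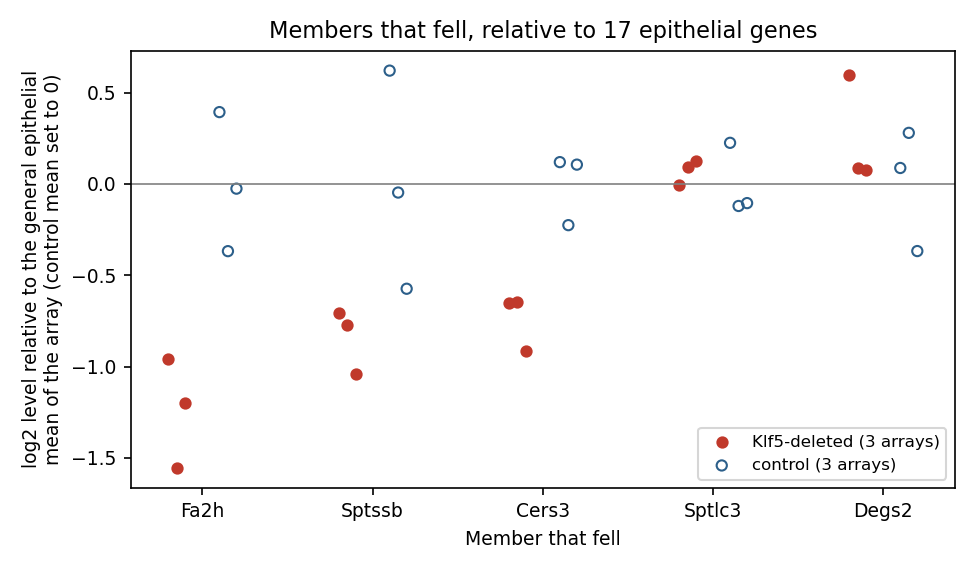
Log2 level of the 5 genes relative to the mean of 17 general epithelial genes on the same array, with the control mean set to 0, Klf5-deleted (filled) left of control (open). Fa2h, Sptssb and Cers3 lie below the controls on this scale, by 1.24, 0.84 and 0.74 on average, and Sptlc3 and Degs2 overlap with them.

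Klf5 itself read 10.12 to 10.34 in the Klf5-deleted arrays and 10.63 to 10.97 in the control arrays (-0.59, adjusted p = 0.0381 by limma), a call that held in 6 of 15 alternative settings. The position of its array feature relative to the deletion is not known here. Arrays of a group correlated with each other at 0.987 to 0.996 across genes, which are not independent replicates. Arrays of different groups correlated at 0.986 to 0.993. Control 2 correlated with controls 1 and 3 at 0.987 and 0.989, less than control 3 did with the Klf5-deleted arrays (0.992 to 0.993). Placental and decidual transcripts varied between arrays of both groups. Control 2 was highest for Tpbpa at 13.13, against 6.18 to 10.34 in the Klf5-deleted group and 6.19 and 8.35 on the other controls. The granzyme gene Gzmd was highest on Klf5-deleted 2, at 10.80, against 9.83 on control 2, and was also high on Klf5-deleted 1 at 9.26. Of 6 measured placental and decidual genes 0 passed limma's test (0 at an unadjusted p under 0.05). Without control 2 the same 5 genes fell, with Fa2h at -2.77, Sptssb at -2.21, Cers3 at -2.20, Sptlc3 at -1.34 and Degs2 at -0.95. Without Klf5-deleted 2, Fa2h and Cers3 passed at -2.38 and -2.08, and Sptssb at -2.17, Sptlc3 at -1.24 and Degs2 at -0.96 had an adjusted p by limma of 0.052, 0.0665 and 0.0515. Of 10 smooth muscle genes 1 fell. At an unadjusted p under 0.05 by limma 7 of the 10 were lower, against 8.08% of all genes. Without overlap 7 were lower, against 11.8% of all genes. All 10 smooth muscle genes were lower, with list means of 11.61 to 11.84 in the Klf5-deleted group and 11.85 to 12.16 in controls. In the mesothelial list of 5 genes 2 fell, Msln (-1.42) and Krt19 (-1.46), and 1 rose, Wt1 (0.54). Lrrn4 (0.39) and Upk3b (-0.32) did not pass. Krt19 was also in the general epithelial list and Upk3b in that of urothelial differentiation. None passed by limma among 10 mesenchymal, 8 endothelial, 8 leukocyte, 6 neuronal and glial, 6 erythroid and 8 skeletal muscle genes, where 3, 3, 0, 0, 0 and 3 had an unadjusted p under 0.05. All 8 skeletal muscle genes were higher, with a median of 0.82 and list means of 9.14 to 10.30 in the Klf5-deleted group, highest on Klf5-deleted 3, and 8.44 to 9.52 in controls. The part of these tissues in the sphingolipid results was not tested.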

How the data were processed

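RNA of 6 pools of whole embryonic bladders was measured, 1 array each. The authors deposited log2 values made with RMA (background correction, quantile normalization and probe summary), per the submitters' processing notes; neither the RMA version nor the genome build is stated in those notes, and the log2 scale was inferred from a range of 3.24 to 14.6. Scanner files were not used here, so background could not be assessed, and RMA compresses differences of dim features. Of 35557 features, 21789 had 1 gene symbol, 1621 had several and 12147 were unnamed here; 19938 genes were tested, 999 of them with several features, and 19856 matched a RefSeq table (GRCm38.p6).

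Klf5-deleted was compared with control by limma 3.58.1 in R 4.3.3 (lmFit, eBayes, two-sided, Benjamini-Hochberg over all genes, threshold 0.05), after a check on simulated data. The number of arrays limits the precision, and p-values measure the spread between pools, which may share litters. The genes, pairs and lists were chosen with earlier results of these data known. By a fixed rule, values on every array were given for members past the threshold or differing by at least 0.5 without overlap; Elovl1, Cerk, Sgms2, Gm2a, Plekha8 and Hacd2 were singled out after their values were seen. The alternatives were 15 settings of model, centring, filter, features and left-out arrays.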

Additional observations from a re-analysis of the deposited data

How the results depend on the processing

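Of the 15 alternative settings, 14 tested the 5 falling genes, and all 5 kept their sign there; the filter to genes above the median level removed all 5, so 0 of 26 members fell there. Fa2h and Cers3 passed in these 14 settings, Degs2 in 13, Sptssb in 11 and Sptlc3 in 7. Relative to the epithelial mean, Sptlc3 and Degs2 turned to 0.072 and 0.25. The deviations of same-numbered arrays correlated at 0.0092, 0.031 and 0.079, against -0.053 to 0.011 for arrays with different numbers. With 3 arrays a group, these small values cannot settle whether the replicate numbers pair the arrays. With the replicate number as a block, the count of falling members was 3, of other pathway genes 3 falling and 0 rising, and of all genes 105 falling and 5 rising. Leaving out 1 array gave 2 to 5 falling members, 3 to 6 falling and 0 to 2 rising other pathway genes, and 124 to 285 falling and 17 to 64 rising genes overall.

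Centring on housekeeping genes moved the median of all genes by 0.21, to 0.20, and that of the members to 0.14. It subtracted each array's median level over 7 housekeeping genes, which on every array was the reading of Pgk1 or B2m. Pgk1 and B2m differed by -0.20 and -0.28, and the other housekeeping genes by -0.098 to 0.047. The shift in this setting is therefore that of Pgk1 and B2m and not of the list as a whole. This centring gave 1 rising member (Cerk), 4 falling and 4 rising other pathway genes, and 1372 rising genes overall. Centring on the median of all genes gave 116 rising genes. The filter on level left 171 falling genes, with 4 falling and 0 rising other pathway genes. Adjusting every feature together gave 163 falling and 17 rising genes, with 4 falling and 0 rising other pathway genes. Of the 32 members that did not pass, 8 kept their sign in every setting that tested them, among them Elovl1 and Cerk; 18 changed sign under housekeeping centring and 0 to 8 in each other setting. The paralog contrast of Sgpp2 and Sgpp1 was 0.018 after a second quantile normalization and -0.15 to 0.085 with 1 array left out, and that of Elovl7 and Elovl1 was -0.059 to 0.25 with 1 array left out. Where not given, the cause of a change was not tested.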
